A study of Rattus norvegicus with 6 samples.

Results

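The end of rat chromosome 5, from position 154332416 to position 173623794 of rn6, holds 2591 of the 220490 peaks of accessible chromatin merged over 6 ATAC-seq libraries. The stretch was chosen by the measured values themselves: neighbouring peaks there read higher in Med14 S983A than in WT cells in earlier work on the same table. The height of the genotype difference is therefore given below as a description, without a test. What the choice did not use are the responses to treatment within a genotype. The way the difference varies with peak strength, length and position is a description of the same values. The other 11660 merged peaks of chromosome 5 served as the comparison.

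ATAC-seq uses the Tn5 transposase to cut DNA that is not packed tightly in nucleosomes, so that reads pile up at promoters, enhancers and other open sites. The cells were INS-1, derived from a rat insulinoma and able to secrete insulin in response to glucose, either unmodified (WT) or carrying the Med14 S983A change. Med14 is a backbone subunit of Mediator, the complex that links transcription factors bound at enhancers to RNA polymerase II, and S983A replaces a serine of Med14 with alanine, which cannot be phosphorylated. Cells of each genotype were untreated (CON), or treated for 1 h with 10 nM Ex-4 or with 10 µM FSK, after all had been placed in serum-free medium. Ex-4 (exendin-4) activates the GLP-1 receptor, which raises cAMP in beta cells, and FSK (forskolin) raises cAMP by activating adenylate cyclase directly. The cAMP signal acts through protein kinase A on factors such as CREB, and accessible sites near target genes can open within that time. The paper's methods describe 2 independently generated knock-in lines obtained by CRISPR editing and single-cell sorting. The sources used here do not say which line or lines gave the mutant libraries. With 1 library for each of the 6 conditions, error between replicates is unknown. All differences are between libraries, and the genotype cannot be told apart from other properties of the cells that carry it.

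The values are FPKM, reads per kilobase of peak scaled to the total of reads in that library's own peaks. A listed 0 marks a peak that was not called in that library. Whole-read steps in the low values put these totals between 134300000 in Med14 S983A CON and 251100000 in WT FSK. A typical peak of the region called in all 6 libraries rested on between 598 and 1126 reads, which gives a counting error between 2.98% and 4.09%. In bulk cells, a site open in more cells and a site more open in each cell cannot be told apart. The number of DNA copies, which also affects read counts, was not measured here. Counting error is small beside the genotype differences and the 2-fold FSK responses, but not beside the Ex-4 responses, whose median absolute deviation over the members was 0.11 in WT and 0.10 in the mutant on the log2 scale. It does not include variation between cultures. The genes and sequence beneath the peaks were not analysed here, since the rn6 genome and annotation were not used here. Peaks are named by their rn6 coordinates, and beta cell marker genes and the edited codon were not checked.

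The region spans 19.3 Mb and has 134 merged peaks per Mb, against 75.5 per Mb on the rest of the chromosome. The density begins before the region, since the 6 Mb just before it hold 149 merged peaks per Mb. Of the members, 1001 (38.6%) were called in all 6 libraries, close to the 39.6% of the other chromosome 5 peaks. Those 1001 had a median length of 630 bp, against 580 bp for their counterparts elsewhere on the chromosome, and a median strength of 9.40 FPKM against 8.16 FPKM. The 1590 other members, which at least 1 library missed, were short, with a median of 192.5 bp. Within the region the density was uneven. No merged peak starts between 9 and 10 Mb from the start of the region, and the 2 bins of 1 Mb before that gap hold 43 and 41 merged peaks. By contrast, the second bin holds 220.

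Among the members called in all 6 libraries, 1000 had a mean of at least 1 FPKM and were compared on the scale log2(FPKM + 0.5). Their median level in the WT libraries was 6.66 FPKM in CON, 6.74 in Ex-4 and 7.19 in FSK. In the Med14 S983A libraries the median was 11.8 FPKM in CON, 11.6 in Ex-4 and 11.8 in FSK. Each mutant library lay above every WT library. The median genotype difference (Med14 S983A minus WT) was 0.90 in CON, with quartiles of 0.42 and 1.15. It was 0.91 in Ex-4, with quartiles of 0.49 and 1.13, and 0.94 in FSK, with quartiles of 0.46 and 1.12. These medians correspond to 1.87-fold, 1.88-fold and 1.91-fold. On the rest of chromosome 5 the median of 4607 peaks was 0.13 in each of the 3 treatments, and over all 86465 peaks compared it was 0.051 in CON, 0.052 in Ex-4 and 0.037 in FSK.

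A 2-fold higher value in the mutant was met by 414 members (41.4%) in CON, 403 (40.3%) in Ex-4 and 428 (42.8%) in FSK. The background, the share among all 86465 peaks, was 4.9% in CON, 4.98% in Ex-4 and 4.07% in FSK, and since these contrasts chose the region nothing is read from the excess. At least 2-fold lower values were found in 44, 43 and 45 members in the same order, against backgrounds of 10.5%, 9.6% and 11.4%. In all 3 treatments at once, 299 members (29.9%) were 2-fold higher and 36 (3.6%) were 2-fold lower, with backgrounds of 2.88% and 7.7%. The 3 mutant values lay above all 3 WT values in 736 members (73.6%, background 27.7%) and below all of them in 74 members (background 22.4%). A majority of members thus read higher in every mutant library, while fewer reached the 2-fold limit, which lies just above the medians.

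**Figure D1:**
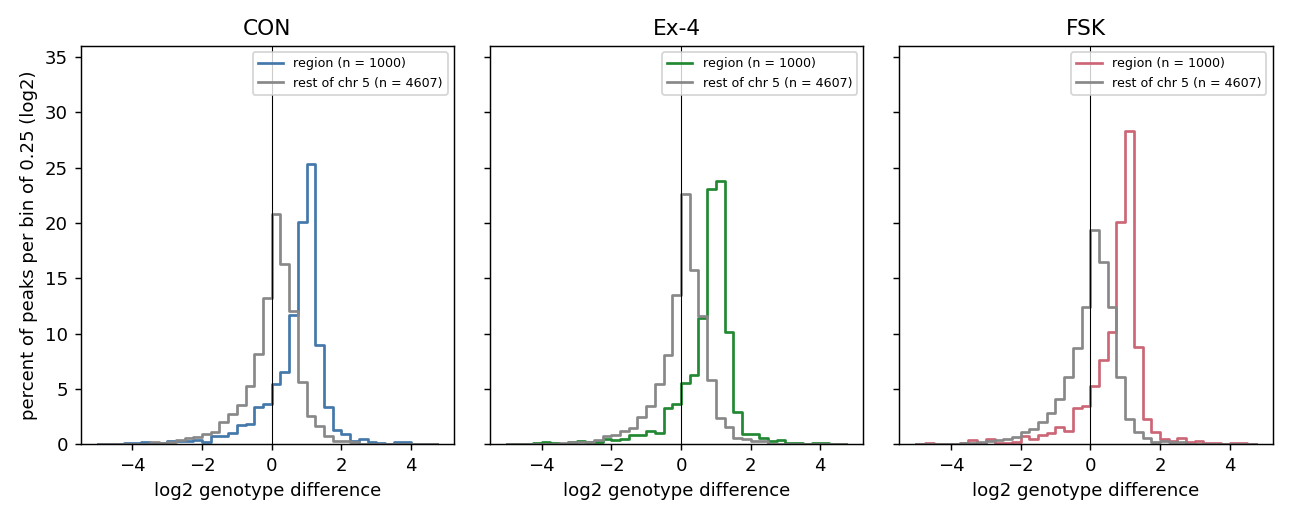
Percent of peaks per 0.25 step of the genotype difference (log2(FPKM + 0.5), Med14 S983A minus WT) in CON, Ex-4 and FSK, coloured for the 1000 members and grey for 4607 other chromosome 5 peaks. The members pile up near 1, with medians of 0.90, 0.91 and 0.94, while the grey curve peaks near 0 with a median of 0.13. A tail of members reaches below 0 in each panel.

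The members spread about as widely around their median as other peaks did around theirs. Averaged over the 3 treatments, the members' differences had quartiles of 0.47 and 1.12 and an SD across peaks of 0.84. On the rest of chromosome 5 the quartiles were -0.27 and 0.47 and the SD was 0.76. Of the members, 685 (68.5%) lay between 0.5 and 1.5, 122 lay between 0 and 0.5, 58 lay above 1.5 and 135 lay below 0. Over all 86465 peaks 10448 (12.1%) lay between 0.5 and 1.5. The other ranges held 35382, 1236 and 39399 of them in the same order. The difference of a given member was alike from treatment to treatment. The range of a member's difference over CON, Ex-4 and FSK had a median of 0.23, and on the rest of the chromosome it was 0.24. The sign was the same in all 3 treatments for most members, positive in 826 (82.6%) and negative in 112. Over all 86465 peaks it was positive in 37405 (43.3%) and negative in 31466, so a constant sign was common outside the region too.

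Strong peaks held more closely to the common value than weak ones. In the strongest quartile of members, with means from 16.9 to 66.8 FPKM, the median difference in CON was 1.00 with quartiles of 0.80 and 1.14. In the weakest quartile, with means from 1.09 to 5.03 FPKM, the median was 0.61 with quartiles of -0.07 and 1.07. The quartiles between had medians of 0.88 and 0.94. The average difference was above 0 in 244 of 250 members in the strongest quartile and in 188 of 250 in the weakest. On the rest of chromosome 5, peaks in the same strength ranges had medians of 0.04, 0.09, 0.10 and 0.23 from weak to strong. Their quartiles narrowed too, from -0.44 and 0.47 in the weakest range to 0.03 and 0.51 in the strongest. Over all peaks the share with an average difference above 0 rose from 48.2% in the weakest range to 68.8% in the strongest. The narrowing with strength was thus not particular to the region. Adding 0.5 FPKM pulls the differences of low peaks towards 0, and with 0.1 FPKM added, a setting tried after seeing the data, the medians were 0.70, 0.93, 0.97 and 1.01 from weak to strong. The order was the same and the spread between the quartiles smaller. Length gave no steady order, with medians of 0.79, 0.87, 0.80 and 1.05 from the shortest to the longest quartile. The 135 members below 0 had a median strength of 5.54 FPKM, against 11.3 FPKM for those between 0.5 and 1.5. Strength is the mean over all 6 libraries, so the mutant values enter both the strength and the difference. A member raised in the mutant is thereby also counted as stronger, and the order of the medians with strength is partly built in. How much was not tested.

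**Figure D2:**
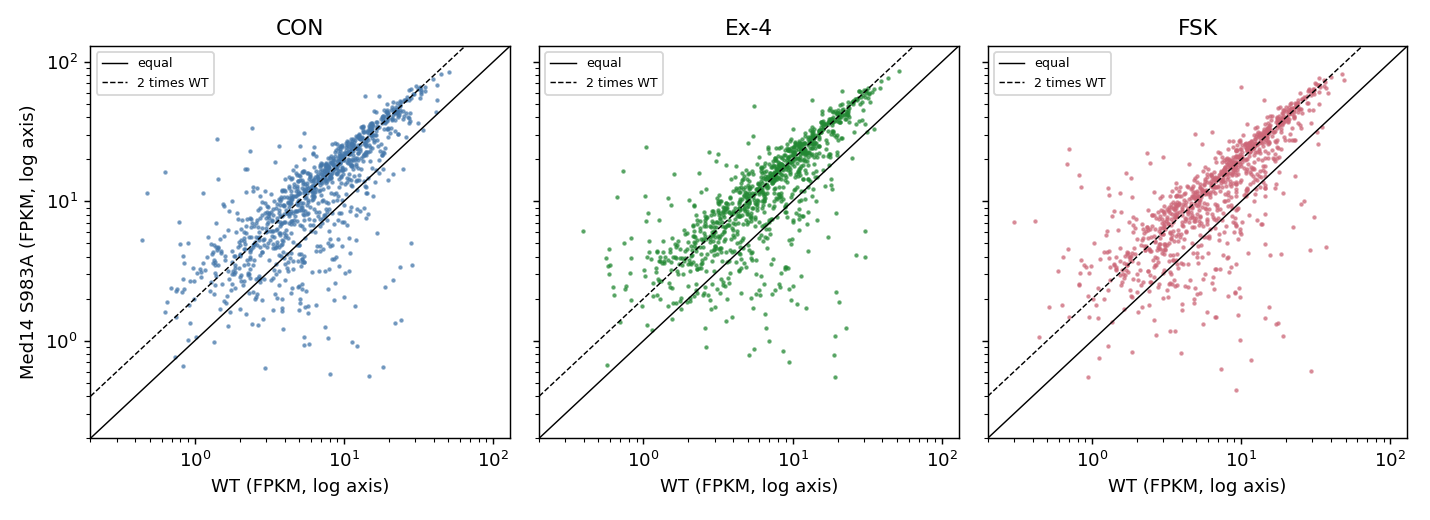
FPKM of each of the 1000 members in WT (x axis, log) and Med14 S983A (y axis, log), 1 panel per treatment, with a solid line for equal values and a dashed line for 2 times the WT value. Strong members follow the dashed line closely, while weak members scatter widely on both sides.

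The 5 strongest members show the common difference with little variation between treatments. They are chosen by their mean FPKM over the 6 libraries. The peak at chr5:159227161-159227850 had 50.5, 51.7 and 47.7 FPKM in WT CON, Ex-4 and FSK, and 84.0, 85.7 and 81.2 FPKM in the mutant. The peak at chr5:172624534-172625242 had 44.6, 43.4 and 40.0 FPKM in WT and 82.3, 77.0 and 77.5 FPKM in the mutant. The peak at chr5:173541836-173542647 had 39.5, 39.3 and 36.6 FPKM in WT and 75.0, 72.4 and 71.8 FPKM in the mutant. None of these 3 overlapped between genotypes, and their differences lay between 0.72 and 0.96. The remaining pair, at chr5:167010432-167011035 and chr5:160352700-160353336, had differences of 0.70, 0.74 and 0.86, and of 0.89, 0.86 and 1.04, in CON, Ex-4 and FSK. At these 5 sites the responses to Ex-4 and FSK were smaller than the genotype difference in every library pair.

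A few members departed far from the rest, in both directions. At chr5:168009634-168010718, the member with the highest mean difference, WT had 1.41, 1.04 and 0.70 FPKM in CON, Ex-4 and FSK, and the mutant had 28.0, 24.5 and 23.6 FPKM. The next, at chr5:167090554-167091645, had 0.64, 0.73 and 0.68 FPKM in WT and 16.2, 16.6 and 18.5 FPKM in the mutant. Both were weak in WT and above the median of the members in the mutant. The third, at chr5:173237657-173238637, had differences of 3.60, 3.26 and 3.29 in CON, Ex-4 and FSK. The fourth, at chr5:167760227-167760829, also responded to treatment, with 2.42, 5.52 and 10.0 FPKM in WT and 33.7, 48.6 and 65.5 FPKM in the mutant. At this site the values climbed from CON through Ex-4 to FSK in both genotypes.

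The lowest differences were as large in size. At chr5:168595495-168596439 WT had 14.7, 19.2 and 29.2 FPKM and the mutant had 0.56, 0.55 and 0.61 FPKM. There FSK nearly doubled the WT value, a response of 0.96, whereas the mutant response was 0.07. At chr5:156546287-156546882 WT had 18.2, 19.1 and 18.9 FPKM and the mutant had 0.65, 1.07 and 1.08 FPKM. The other two, at chr5:171380629-171381321 and chr5:158472435-158473074, had mean differences of -3.63 and -3.56. Peaks that were nearly closed in the mutant thus lay inside a stretch whose median was higher in the mutant.

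The rise at the left edge of the region was abrupt. The 52 peaks called in all 6 libraries in the 1 Mb before the region had median differences of -0.03, 0.05 and 0.09 in CON, Ex-4 and FSK. Within the 1 Mb from the step, 85 peaks had medians of 0.91, 0.94 and 1.02. The running median over 15 neighbouring peaks, a window set after seeing the data, was last below 0.25 at 154376585 and first at or above 0.75 at 154416339, which are 39.8 kb apart. Each treatment placed the step within a similar gap, of 30.0 kb in CON, 39.8 kb in Ex-4 and 63.8 kb in FSK. The first 7 members lie before the step, with medians of 0.01, 0.03 and 0.15, so the boundary of the rule falls slightly short of the change.

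Neither the peaks just inside the boundary nor those just outside it showed the rise of the region, though their differences varied. Inside, chr5:154332416-154333447 had 9.69, 10.1 and 16.6 FPKM in WT and 10.1, 12.1 and 20.1 FPKM in the mutant. The next, chr5:154362920-154363725 and chr5:154367315-154367622, had differences in CON of 0.18 and -0.56. Outside, the nearest peak, chr5:154326170-154327304, had 14.8, 15.2 and 20.7 FPKM in WT and 16.5, 17.5 and 24.8 FPKM in the mutant, and the 2 before it, at chr5:154318768-154319956 and chr5:154316727-154317165, had differences in CON of 0.17 and -1.45. None of these 6 had the difference of about 1 that the members further in show.

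From the step onward the level held nearly flat. In 1 Mb bins with at least 20 peaks the median in CON lay between 0.75 and 1.09. Successive runs of 200 members had medians of 0.87, 0.90, 0.85, 1.01 and 0.82. A few bins departed from this, all with few members. The bins starting 7 and 8 Mb from the start, beside the stretch without peaks, had medians of -0.20 (11 members) and 0.24 (12 members), and the bin starting at 17 Mb had -1.14 (14 members). The 7 peaks called in all 6 libraries beyond the last member had medians of 0.94, 0.96 and 0.94, so no return to the chromosome's level was seen before the last peak.

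The rest of the chromosome was not uniform either. Up to 48 Mb before the region, 2413 peaks had medians of 0.03, 0.03 and -0.01 in CON, Ex-4 and FSK. A stretch from 48 to 38 Mb before it was also raised, with 0.74, 0.74 and 0.59 over 185 peaks, and its highest 1 Mb bin, with 27 peaks, had 1.10 in CON, against 1.09 in the highest bin of the region. From 38 to 6 Mb before the region 1577 peaks had 0.37, 0.39 and 0.41, and in the last 6 Mb before it 425 peaks had 0.05, 0.07 and 0.11. These limits were set after seeing the data. A difference near 1 in a single bin was thus not found in the region alone. The region held that level over 1000 peaks, but this too was not particular to it. A stretch of chromosome 9, known from earlier work on these data, had medians of 0.89, 0.87 and 0.83 in CON, Ex-4 and FSK, also over 1000 peaks. The limits of both stretches were fixed by that earlier work, so these counts of peaks are not measured extents.

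**Figure D3:**
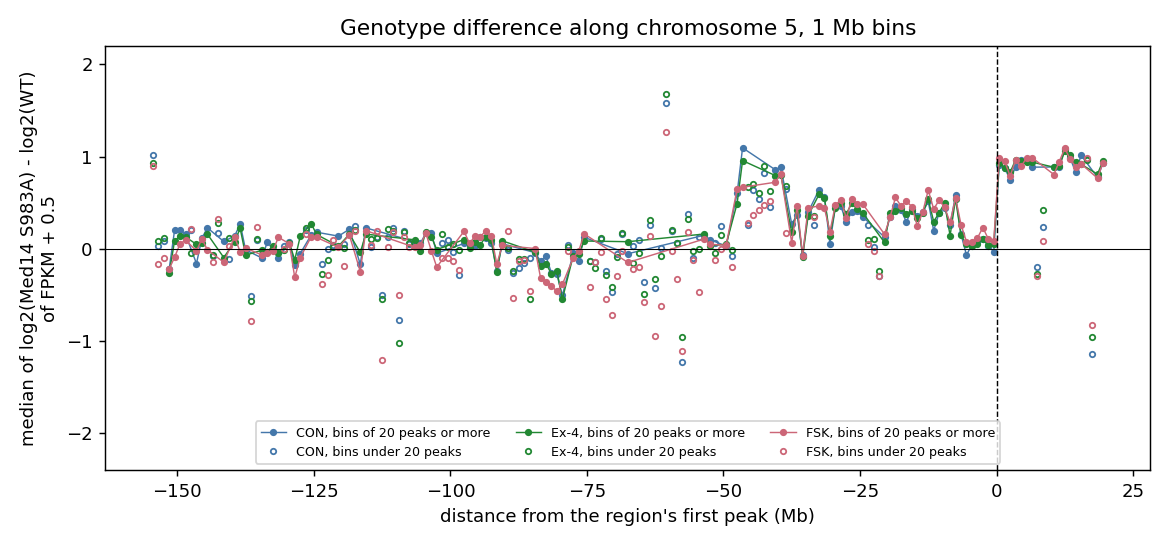
Median genotype difference (log2(FPKM + 0.5), Med14 S983A minus WT) in 1 Mb bins of chromosome 5 against the distance from the region's first peak in Mb, with filled points for bins of 20 or more peaks and open points for smaller bins. Right of the dashed line the filled points lie between 0.75 and 1.09 in CON, and the open points of 3 sparse bins lie at or below 0.42 in each treatment.

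The share of all reads in peaks that fell in the region restates the same difference, since these reads were recovered from the same FPKM values. This share was 0.779%, 0.790% and 0.860% in WT CON, Ex-4 and FSK, and 1.40%, 1.42% and 1.53% in the mutant. The ratios of mutant to WT were 1.79, 1.80 and 1.78. The length covered by called members differed little, with ratios of 1.02, 1.07 and 1.04, and the ratios of the mean FPKM were 1.76, 1.68 and 1.71. Over the fixed set of members called in all 6 libraries the ratios of reads were 1.80, 1.81 and 1.78. The ratios for the rest of chromosome 5 were 1.11, 1.11 and 1.12. The exact 95% intervals, which cover counting error only, ran from 0.777% to 0.780% in WT CON and from 1.393% to 1.397% in the mutant CON.

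Calling moved in the same direction. Of the 2591 members, 720 (27.8%) were called in at least 1 mutant library and in no WT library, and 360 (13.9%) were called in WT only. On the rest of chromosome 5 these shares were 17.3% and 18.5%, and over all peaks they were 13.99% and 22.6%. Calls per library went from 1355 (52.3%) in WT CON through 1373 (53.0%) in WT Ex-4 to 1746 (67.4%) in WT FSK. Over all peaks these shares were 59.5%, 60.1% and 76.9%. In the mutant the calls went from 1472 (56.8%) through 1656 (63.9%) to 1983 (76.5%), against 54.0%, 58.7% and 65.4% of all peaks. The rise from CON to FSK was thus not particular to the region. WT FSK was the library with the most reads behind its values. The mutant FSK library alone called 279 members (10.8%), against 6.25% of the other chromosome 5 peaks and 4.95% of all peaks. WT FSK alone called 126 (4.86%), against 7.67% and 9.66%. In all 3 mutant libraries and no WT library 156 members (6.02%) were called, against 2.27% of all peaks. In the reverse pattern there were 142 (5.48%), at the share over all peaks, 5.52%.

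Members called in 1 genotype only included strong peaks. The strongest mutant-only peaks were chr5:159579950-159580077, with 35.3, 32.3 and 30.8 FPKM in CON, Ex-4 and FSK, chr5:160744490-160745434, with 28.1, 28.1 and 24.7 FPKM, and chr5:159756507-159756920, with 27.3, 23.8 and 23.7 FPKM. All 3 were listed at 0 in the WT libraries. The strongest WT-only peak, chr5:172307152-172307798, had 42.0, 42.7 and 40.6 FPKM and was listed at 0 in the mutant. The other two, chr5:168614472-168615374 and chr5:154389295-154389871, had 32.6, 38.8 and 44.5 FPKM and 16.4, 23.4 and 34.7 FPKM in WT. The last of these climbed with treatment in WT, with an FSK response of 1.06, and lies within the gap in which the running median steps up.

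The treatment responses within a genotype, which the choice of the region did not use, were much alike in the 2 genotypes. The mutant response minus the WT response equals the genotype difference under treatment minus that in CON. This likeness therefore restates that the difference of a given member was alike from treatment to treatment. The median Ex-4 response of the members was 0.001 in WT and 0.0004 in the mutant. For FSK the medians were -0.01 in WT and 0.01 in Med14 S983A. The other chromosome 5 peaks had median FSK responses of -0.14 in WT and -0.12 in the mutant, as did all 86465 peaks. In the 6 Mb before the region the medians were 0.04 in WT and 0.11 in the mutant, so medians near or above 0 were not found in the region alone. The median difference between the mutant and WT responses was 0.002 for Ex-4, with quartiles of -0.10 and 0.13, and 0.01 for FSK, with quartiles of -0.13 and 0.15. Across the 1000 members the FSK responses of the genotypes, which share no library, had a Pearson correlation of 0.85, the same as on the rest of the chromosome. For Ex-4, whose responses were smaller, it was 0.55 among members and 0.46 on the rest.

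FSK opened a small group of members and closed fewer. At least 2-fold higher values after FSK were found in 57 members (5.7%, background 5.94%) in WT and in 49 members (4.9%, background 4.56%) in the mutant, close to the backgrounds. At least 2-fold lower values were found in 12 members (1.2%, background 3.65%) in WT and 16 (1.6%, background 4.28%) in the mutant, below the backgrounds in both genotypes. The low share of closing peaks was not particular to the region, since the 6 Mb before it had 1.88% in WT and 1.41% in the mutant, whereas the part of the chromosome up to 48 Mb before it had 4.64% and 5.39%. Ex-4 opened 9 members in WT (background 0.448%) and 9 in the mutant (background 0.634%). It closed 2 in WT (background 0.0625%) and 1 in the mutant (background 0.0497%).

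**Figure D4:**
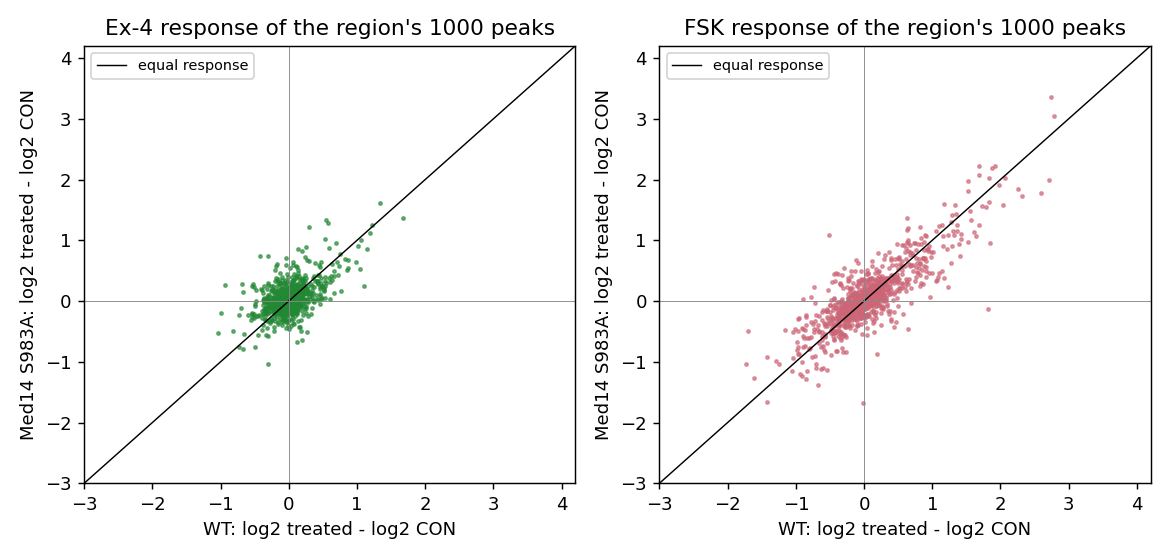
Response of each of the 1000 members (log2(FPKM + 0.5), treated minus CON) in WT (x axis) and Med14 S983A (y axis), for Ex-4 on the left and FSK on the right, with a line of equal response. FSK responses follow the line with a correlation of 0.85, and Ex-4 responses gather near 0.

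Most of the opened members opened in both genotypes. FSK raised 40 members at least 2-fold in WT and in the mutant (4%, background 3.63%), 17 in WT alone (1.7%, against 2.31% of all peaks) and 9 in the mutant alone (0.9%, against 0.928%). It lowered 5 members in both (0.5%, background 2.05%). The 40 lie in 14 of the 1 Mb bins, with at most 9 in one bin. Ex-4 raised 5 members (0.5%) in both genotypes, against 0.165% of all peaks. All 5 were among the 40, and 142 of the 143 such peaks among all 86465 were likewise opened by FSK in both genotypes. The Ex-4 and FSK responses share the CON libraries. No member called in all 6 libraries opened 2-fold with FSK in one genotype and closed 2-fold in the other.

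The genotypes were also compared over the 49 members whose mean FSK response over both genotypes reached 2-fold. Their median went from 3.91 FPKM in CON through 5.52 in Ex-4 to 12.0 in FSK in WT, and from 4.26 through 5.59 to 13.2 in the mutant. The median responses of the 49 were 1.53 in WT and 1.37 in Med14 S983A. The difference between the responses had a median of -0.13 with quartiles of -0.40 and 0.19. The mutant response was the smaller in 30 of the 49 (61.2%), against 67.8% of the 205 such peaks on the rest of the chromosome and 67.7% over all peaks. Their genotype difference in CON had a median of 0.42, lower than the 0.90 of all members, and 34 of the 49 had an average difference above 0. Peaks so opened were lower elsewhere too. On the rest of chromosome 5 they had 0.03 against 0.13, and over all peaks -0.09 against 0.05. The 12 members closed by the same measure had median responses of -1.27 in WT and -1.17 in the mutant.

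The 4 members with the highest mean FSK response climbed from CON through Ex-4 to FSK in both genotypes. At chr5:157962784-157963611 WT had 1.01, 3.33 and 9.58 FPKM and the mutant had 1.07, 4.32 and 15.6 FPKM, so the untreated levels were nearly equal. At chr5:154870857-154871477 WT had 0.74, 1.35 and 8.09 FPKM and the mutant had 1.48, 4.31 and 15.7 FPKM. At both, the mutant response to FSK was the larger on the log2 scale used here, 3.36 against 2.73 and 3.04 against 2.79. As plain ratios of FSK to CON, chr5:157962784-157963611 rose 14.6-fold in the mutant against 9.44-fold in WT. By the same ratio chr5:154870857-154871477 rose 10.7-fold in the mutant against 10.9-fold in WT. The order at that site therefore depends on the constant added to its low CON values. At chr5:160530797-160531579 WT had 4.58, 15.7 and 32.7 FPKM and the mutant had 16.8, 44.1 and 68.4 FPKM. At chr5:156506935-156507738 WT had 1.5, 3.94 and 11.6 FPKM and the mutant had 4.26, 8.07 and 15.8 FPKM. At this pair the mutant started higher and its response was the smaller, 1.99 against 2.71 and 1.77 against 2.60.

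The 4 members with the lowest mean FSK response fell from CON through Ex-4 to FSK in both genotypes. At chr5:156617332-156618125 WT had 26.0, 16.1 and 7.48 FPKM and the mutant had 29.1, 16.7 and 13.9 FPKM. At chr5:159577009-159577411 WT had 22.8, 17.1 and 8.19 FPKM and the mutant had 45.3, 37.2 and 23.8 FPKM. At chr5:162896919-162897718 WT had 16.6, 12.7 and 5.09 FPKM and the mutant, lower throughout, had 5.95, 4.42 and 2.17 FPKM. The first of these was about equal in the untreated genotypes, the second followed the region and the third went against it. The weakest, chr5:166577949-166578515, had responses of -1.43 in WT and -1.66 in the mutant.

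**Figure D5:**
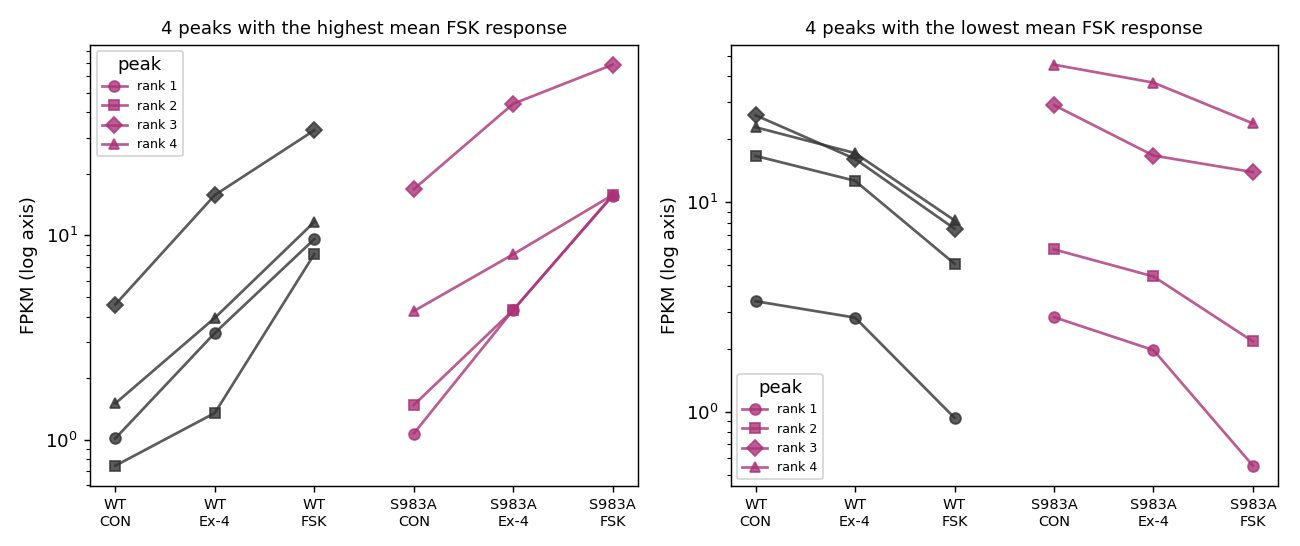
FPKM (log axis) in the 6 libraries of the 4 members with the highest (left) and the 4 with the lowest (right) mean FSK response, with WT in grey and Med14 S983A in purple and 1 marker shape per peak. Every peak is ordered CON, Ex-4, FSK within each genotype, upward on the left and downward on the right.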

How the data were processed

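Chromatin accessibility was measured by ATAC-seq in INS-1 cells of 2 genotypes and 3 treatments, with 1 library per condition and groups taken from the sample labels. Nuclei (50000 per library) were tagmented with Tn5. Per the paper's methods and the submitters' processing notes, reads were trimmed (Trim Galore), mapped onto rn6 (bwa mem) and cleared of mitochondrial, low-quality and duplicate alignments (samtools), and peaks came from macs2. The authors deposited FPKM over the merged peaks, made with HOMER. Each value was relative to reads in that library's own peaks, so a change in one place moves values elsewhere. The paper's supplement lists versions of macs2, HOMER and samtools. Its methods describe a shift of fragments before the footprinting, and do not say whether the deposited values used shifted fragments. A recovered read may be a read or 1 end of a pair.

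Members, lists and the regions compared were chosen with earlier results of these data known. Members had chr5 starts within the limits above. Peaks called in all 6 libraries with a mean of at least 1 FPKM were compared as log2(FPKM + 0.5), with the authors' scaling kept. The size rule was 2-fold. No p-value was computed. The 3 mitochondrial peaks were left out.

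Named peaks were the 5 strongest, the 4 highest and 4 lowest by mean FSK response and by mean genotype difference, the 3 strongest called in 1 genotype only, and the 3 nearest the left boundary on each side. Genes, markers and motifs were not analysed here. Alternatives were pseudocounts of 0.1 and 1, no filter, a mean of at least 3 FPKM, centring, quantile normalization, zeros included, a 1.5-fold rule, 2 Mb bins and runs of 100 peaks. The calculation was tested on simulated reads. The software was matplotlib 3.10.9, scipy 1.17.1, pandas 2.3.3, numpy 2.4.6 and Python 3.11.15.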

Additional observations from a re-analysis of the deposited data

Results flagged for a closer look

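With zeros included, some members moved at least 2-fold in opposite directions in the 2 genotypes, a difference between genotypes that was not tested. FSK opened 6 members in WT that it closed in Med14 S983A and closed 2 that it opened in Med14 S983A. Ex-4 opened 5 members in WT that it closed in Med14 S983A, and closed 5 that it opened. Together these are 17 of 1763 members with a mean of at least 1 FPKM, 1 of them counted for both stimuli, and 0 of the 17 were called in all 6 libraries. The share of such peaks outside the region was not computed, so nothing about the region is read from these counts. Each has a listed 0, which marks a missing call. The longest, chr5:169585147-169585889, had 9.44, 6.07 and 3.79 FPKM in WT CON, Ex-4 and FSK, and was listed at 0 in Med14 S983A CON, with 0.42 and 0.68 FPKM after Ex-4 and FSK. It was singled out after its values were seen.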

How the results depend on the processing

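The median genotype difference of the members stayed above 0 under every alternative run. In CON, Ex-4 and FSK it was 0.95, 0.96 and 0.98 with a pseudocount of 0.1, 0.85, 0.87 and 0.88 with 1, 1.02, 1.02 and 1.11 with libraries centred, and 0.96, 0.97 and 0.98 after quantile normalization. With zeros included it was 0.78 in CON and 0.86 in FSK. The 1.5-fold rule counted 700, 718 and 697 members as higher, and 69 and 70 as lower in CON and FSK. It counted 133 and 115 as opened by FSK in WT and mutant, and 73 and 56 as closed. Shares over all peaks at that limit were not computed, so no background can be set beside these counts. With zeros included, which takes in 1763 members, 699, 749 and 716 were higher (39.6%, 42.5% and 40.6%, against 11.3%, 13.3% and 8.94% of all peaks so chosen) and 251, 239 and 255 lower (14.2%, 13.6% and 14.5%, against 21.5%, 19.9% and 24.0%). FSK opened 366 and 337 of them (20.8% and 19.1%, against 20.4% and 17.4%) and closed 61 and 78 (3.46% and 4.42%, against 7.39% and 8.85%). A pseudocount of 0.1 closed 26 in WT, and quantile normalization closed 8 in the mutant, again without a share over all peaks. Centring moved the median FSK response to 0.0448 in WT and 0.12 in the mutant and their difference to 0.0648, and quantile normalization gave 0.0440 and 0.0766, so the sign of the small WT median depends on the scaling. The cause was not tested. Bins of 2 Mb put the lowest bin of at least 20 members at 0.42, since the sparse bins then pass that limit. With 1 library per condition no replicate could be left out. No paired analysis was possible because the libraries carry no replicate numbers and none of the results comes from a test. Reads limit only the weak peaks, and variation between libraries is unknown.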
